A study of Mus musculus with 7 samples.

Results

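The fatty acid elongases Elovl1 to Elovl7, the dehydratases Hacd2 and Hacd3 and the enoyl-CoA reductase Tecr were followed in inguinal white fat, a depot that lies under the skin of the groin. These 10 genes were taken by symbol from a table of 55487 genes, and all 10 were found. The tissue came from NOD/ShiLtJ mice, a strain prone to autoimmune diabetes, whose blood glucose lay between 190 and 230 mg/dL at injection. The 4 imBAT libraries came from mice given CB-100, the fraction above 100 kDa of buffer conditioned by brown adipocytes (imBAT conditioned buffer in the labels), at 1.5 mg/kg under the skin for 7 days. The 3 sham libraries came from mice given KRBH buffer alone. RNA was taken 2 to 8 weeks later, and the labels used here give neither the week nor the age for a library. They do not state that each library is a separate mouse, so a p-value reflects only how far these libraries spread, which may be technical.

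Fatty acids are lengthened at the endoplasmic reticulum in a cycle of 4 reactions that adds a pair of carbons from malonyl-CoA on each turn. An elongase of the Elovl family carries out the condensation and sets which chains are lengthened. A ketoacyl-CoA reductase (Hsd17b12), a hydroxyacyl-CoA dehydratase (Hacd1 to Hacd4) and an enoyl-CoA reductase (Tecr) complete the turn for every substrate. Elovl1, Elovl3, Elovl6 and Elovl7 act mainly on saturated and monounsaturated chains, Elovl2 and Elovl5 on polyunsaturated chains, and Elovl4 makes the very longest chains. In fat tissue Elovl6, which turns palmitate into stearate, is the member best known from lipogenesis, and Elovl3 is known from brown fat and from sebaceous glands.

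Promoter sequences are shown for the 4 called members with the largest changes, Elovl6 and Hacd2, and with the smallest, Elovl5 and Elovl1, so that their starts can be compared. Each is the 250 bases before the transcript start in RefSeq (GRCm38.p6, plus strand), at chr3:129532136-129532385, chr16:35022171-35022420, chr9:77917115-77917364 and chr4:118427843-118428092 in that order. Capitals mark matches on either strand to the E-box CACGTG, the CCAAT box CCAAT or the GC box GGGCGG.
Elovl6: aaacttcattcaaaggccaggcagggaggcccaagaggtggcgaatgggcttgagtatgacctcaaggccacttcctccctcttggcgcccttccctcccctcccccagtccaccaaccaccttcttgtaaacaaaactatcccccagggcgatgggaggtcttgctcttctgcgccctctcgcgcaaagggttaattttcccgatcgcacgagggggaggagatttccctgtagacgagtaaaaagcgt
Hacd2: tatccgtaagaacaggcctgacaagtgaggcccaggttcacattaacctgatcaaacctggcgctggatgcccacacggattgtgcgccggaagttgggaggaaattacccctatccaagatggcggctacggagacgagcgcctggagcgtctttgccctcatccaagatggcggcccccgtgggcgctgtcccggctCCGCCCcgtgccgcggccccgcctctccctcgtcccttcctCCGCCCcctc
Elovl5: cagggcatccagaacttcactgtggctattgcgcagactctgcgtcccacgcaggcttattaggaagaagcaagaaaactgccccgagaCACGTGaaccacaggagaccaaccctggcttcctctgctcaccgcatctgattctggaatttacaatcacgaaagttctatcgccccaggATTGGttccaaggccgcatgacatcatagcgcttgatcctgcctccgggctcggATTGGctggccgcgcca
Elovl1: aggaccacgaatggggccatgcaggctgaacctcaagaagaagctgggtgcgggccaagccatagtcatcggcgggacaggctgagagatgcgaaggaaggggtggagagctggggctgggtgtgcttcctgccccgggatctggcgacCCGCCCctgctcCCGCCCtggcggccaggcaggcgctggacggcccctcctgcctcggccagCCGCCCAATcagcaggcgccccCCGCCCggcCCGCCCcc
The Elovl6 window held no match. The Hacd2 window held 2 GC boxes, the Elovl5 window 1 E-box and 2 CCAAT boxes, and the Elovl1 window 5 GC boxes and 1 CCAAT box that overlaps one of them. Among all 32851 windows of that length in the table, 6.02% held the E-box, 33.9% the CCAAT box and 32.7% the GC box. The sterol response element TCACNCCAC, found in 1.05% of windows, was in no member's window, nor were the direct repeats DR1 and DR4 of the half-site AGGTCA, spaced by 1 and by 4 bases and found in 0.0335% and 0.0152% of windows. In all, 9 of the 10 members had a window in the table, in 11 windows, and Elovl3 had none. A match is a string of letters and not a measured site, and these data hold no measurement of binding.

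The libraries differed widely beyond the elongation enzymes. The total count lay between 41025786 and 44983250 in the sham libraries and between 43360208 and 63650016 in the imBAT libraries. Of 26393 genes tested with edgeR's quasi-likelihood test, 43.5% passed an adjusted p under 0.05, 24.3% higher and 19.3% lower in imBAT. Upper-quartile scaling shifted the median gene from -0.01 to -0.25 (log2 fold change) and the share of calls that were higher from 55.8% to 36.6%. White adipocyte markers were higher in imBAT for 15 of 15 genes, and their summed level was 2777 to 5704 CPM (counts scaled to library size, with TMM factors) in sham and 17322 to 40746 CPM in imBAT. All 10 T cell and all 9 B cell markers were lower, with summed T cell levels of 1054 to 1320 CPM in sham and 175.7 to 548.8 CPM in imBAT and summed B cell levels of 1842 to 2194 CPM and 290.9 to 781.4 CPM. The library imBAT replicate 3 had the highest adipocyte and the lowest lymphocyte sums. Mammary epithelium (10 of 10), red blood cell (5 of 5 tested) and endothelial markers (5 of 6, with Pecam1 lower at adjusted p = 0.0153) were also higher, as were 5 of 8 macrophage markers. In sham, the B cell sum of 1842 to 2194 CPM stood beside an adipocyte sum of 2777 to 5704 CPM. The levels and shares below are therefore those of mixed tissue, not of fat cells alone. Fewer cells of a type, less RNA per cell and another share of lymphoid tissue in the piece taken cannot be told apart in such bulk tissue. The part of these shifts in the values below was not tested.

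Of the 10 members, 6 were higher in imBAT (Elovl1, Elovl5, Elovl6, Elovl7, Hacd2 and Tecr), none was lower, 3 did not pass the test (Elovl3, Elovl4 and Hacd3) and 1, Elovl2, fell under the filter on low counts. Beside them, 24.3% of all genes tested were higher. The groups did not overlap for 7 members, all higher in imBAT, where 26.8% of all genes tested showed that order, 25.2% the opposite one and 52% either. Counts of called members fell to 3 with upper-quartile scaling, and to 2 without sham replicate 2 or without sham replicate 3. The plot of levels by library shows each value. On GRCm38, the genes are placed as follows: Elovl1 on chromosome 4 at 118428093 to 118432953, Elovl2 on chromosome 13 at 41182381 to 41220405, Elovl3 on chromosome 19 at 46131897 to 46135694, Elovl4 on chromosome 9 at 83778692 to 83806277, Elovl5 on chromosome 9 at 77917364 to 77984519. Elovl7 is on chromosome 13 at 108214404 to 108285683, Hacd2 on chromosome 16 at 35022428 to 35109177, Hacd3 on chromosome 9 at 64986983 to 65021693 and Tecr on chromosome 8 at 83571698 to 83607971.

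**Figure D1:**
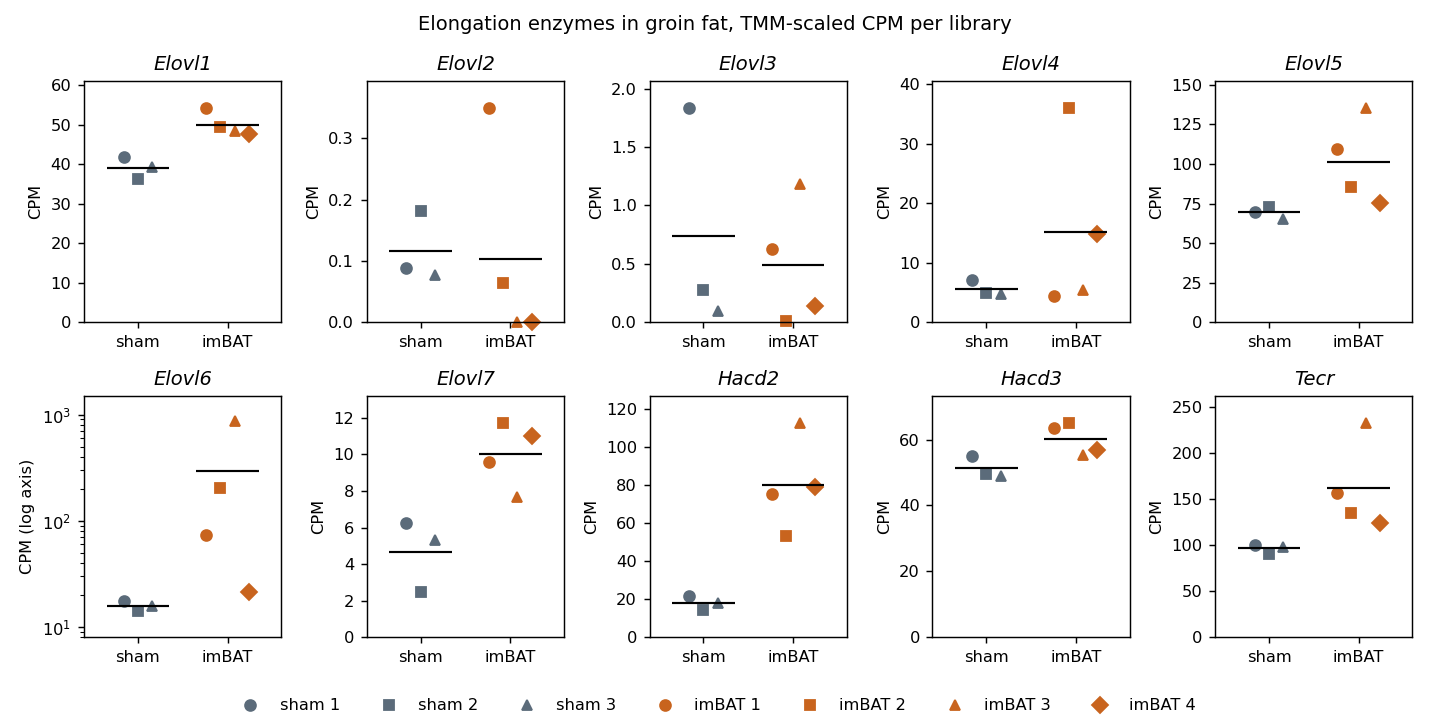
TMM-scaled CPM (y axis; logarithmic for Elovl6, from 0 for the others) of the 10 genes in the 3 sham and 4 imBAT libraries; each point is a library and each line a group mean. Elovl6 spreads from 21.31 to 866.95 CPM within imBAT, while Elovl1 stays between 47.73 and 54.32 CPM.

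Levels were set against each other per kilobase of exon (RPKM, from the CPM and the annotated exon length). In the sham libraries Tecr was the most abundant, at 44.0 ± 2.23 RPKM (SD, n = 3). Elovl5 followed at 19.7 ± 1.12, Hacd3 at 18.9 ± 1.21, Elovl1 at 14.4 ± 1.03, Hacd2 at 4.83 ± 1.01 and Elovl6 at 2.44 ± 0.25 RPKM. Elovl5 overlapped with Hacd3, Elovl6 with Elovl4 (1.85 ± 0.43 RPKM) and Elovl7 (1.16 ± 0.49 RPKM) with Elovl3 (0.37 ± 0.48 RPKM), and the other neighbours were clear of each other. Elovl2, at 0.03 ± 0.01 RPKM, was the lowest. In imBAT the mean of Elovl6 came next after Tecr (45.4 ± 60.8 against 74.1 ± 22.4 RPKM, n = 4), but its libraries ran from 3.31 to 134.8 RPKM, a range that overlapped those of Tecr, Elovl5, Hacd3, Hacd2, Elovl1 and Elovl4. In that order only Elovl1 was clear of its lower neighbour Elovl4, and Elovl7 of Elovl3.

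Elovl6 had the largest log2 fold change of the tested members, and its imBAT libraries differed more than those of any other called member. Its level was 17.37, 14.12 and 15.65 CPM in sham replicates 1 to 3 and 73.53, 205.49, 866.95 and 21.31 CPM in imBAT replicates 1 to 4. The imBAT libraries were all above the sham libraries, from 1.36 times the sham mean in replicate 4 to 55.2 times in replicate 3, and differed among themselves 40.7-fold. The group difference was 4.21 ± 1.16 on the log2 scale (SE), or 18.6-fold, with a 95% interval from 1.56 to 6.87 (edgeR, adjusted p = 0.0190). Elovl6 lies on chromosome 3 at 129532355 to 129638495 (GRCm38). Without imBAT replicate 3 the log2 fold change was 2.62, and voom with quality weights gave 2.40. The call was lost when any 1 sham replicate was left out (adjusted p = 0.0552 to 0.0666) and with no expression filter (0.108). A block on the number that opens each title also ended it (0.0968, log2 fold change 2.70). Only imBAT replicate 2 has the number 22, so in that fit it adds nothing to the group difference. The adjusted p ran from 0.00112 to 0.108 over the alternatives.

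Of the 11 listed genes of malonyl-CoA supply and fatty acid synthesis, 5 had the same order of imBAT libraries as Elovl6 (Acly, Acaca, Fasn, Me1 and Thrsp). Replicate 3 was the highest in 10 of the 11 and replicate 4 the lowest in 7, and values are given for 3 of the 5, chosen after they were seen. How many of all genes tested had such an order was not counted. Replicate 3 was also the highest of the imBAT libraries in the summed white adipocyte markers (40746 CPM). So it was in the members Elovl3, Elovl5, Hacd2 and Tecr, but not in Elovl1, Elovl2, Elovl4, Elovl7 or Hacd3. Acaca, the acetyl-CoA carboxylase that supplies malonyl-CoA, stood at 970.4, 1487, 5205 and 483.6 CPM in imBAT replicates 1 to 4 and at 113.0 to 156.4 CPM in sham. Fasn, the fatty acid synthase that makes palmitate, stood at 6862, 11621, 43095 and 2566 CPM, and at 405.7 to 639.6 CPM in sham. Acly, which supplies cytosolic acetyl-CoA, stood at 506.3, 526.0, 4133 and 246.3 CPM, and at 173.2 to 193.8 CPM in sham. In each of these genes replicate 3 was the highest and replicate 4 the lowest of the imBAT libraries, by 10.8-fold in Acaca, 16.8-fold in Fasn and 16.8-fold in Acly. Replicate 4 was 1.34 times the sham mean in Acly, 3.47 times in Acaca and 4.76 times in Fasn. The fat cell marker Fabp4 varied less, from 2618 to 5881 CPM within imBAT, and stood at 3662 CPM in replicate 4. Of the 15 fat cell markers Gpd1 varied most, 5.30-fold within imBAT, and it too was highest in replicate 3 and lowest in replicate 4. The T cell and B cell sums were lowest in imBAT replicate 3, where these genes were highest, and the part of that in the pattern was not tested.

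**Figure D2:**
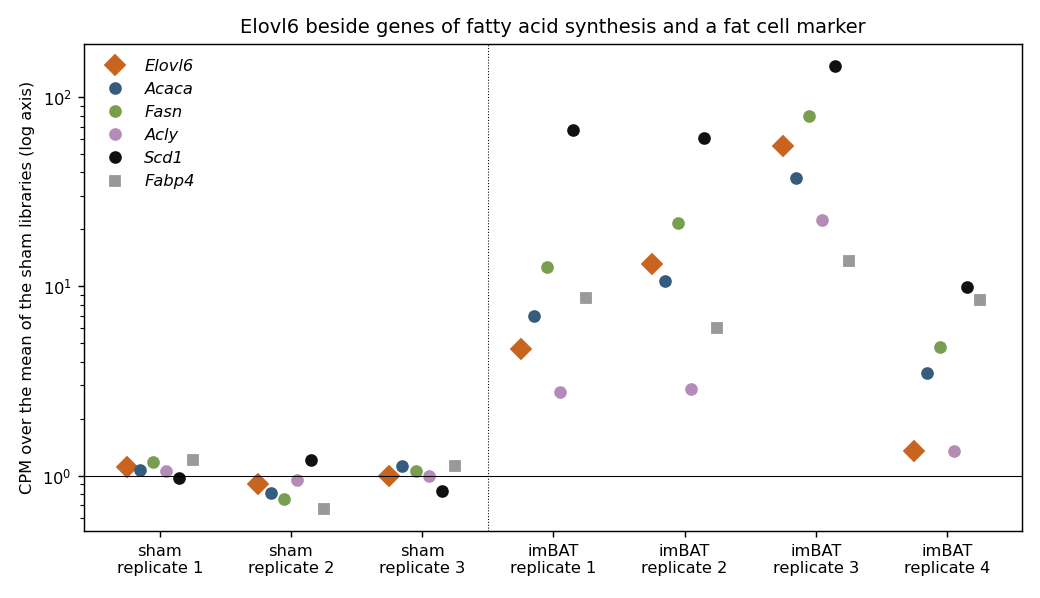
CPM of Elovl6, Acaca, Fasn, Acly, Scd1 and Fabp4 in each library (x axis) over the mean of the 3 sham libraries (y axis, logarithmic); each point is a gene in a library, and the horizontal line marks 1. Elovl6 stands at 4.68, 13.1, 55.2 and 1.36 times the sham mean in imBAT replicates 1 to 4.

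A search over 14809 other tested genes (14810 for Elovl3) with a mean of at least 1 CPM over the 7 libraries gave the profiles closest to each member. Genes with clone names, genes of the mitochondrial genome and repeats of a symbol were left out, so ranks are among the rest. Distance was the root-mean-square difference of log2 CPM over the 7 libraries after centring each gene on its mean. This distance is a description, since the members and the search share libraries and group difference. For Elovl6 the closest were Hephl1 (0.42), Acaca (0.59) and Golga7b (0.66), with Fasn at rank 4 (0.70) and Acly at rank 8 (0.80), whereas Scd1 was at rank 566 and Tecr at rank 2173. Hephl1, a ferroxidase, stood at 0.10 to 0.41 CPM in sham and at 1.11, 4.07, 13.35 and 0.29 CPM in imBAT replicates 1 to 4. Golga7b stood at 0.04 to 0.14 CPM in sham and at 0.81, 4.65, 12.86 and 0.10 CPM. Both lay within the sham range in imBAT replicate 4, and they reached the mean of 1 CPM only through other imBAT libraries, with Hephl1 under 1 CPM in 4 and Golga7b in 5 of the 7 libraries.

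Elovl5, the elongase of polyunsaturated chains, had the highest level per length of any elongase in sham and rose slightly. It stood at 70.0, 73.08 and 65.24 CPM in sham replicates 1 to 3 and at 109.18, 85.5, 135.47 and 75.2 CPM in imBAT replicates 1 to 4. The groups did not overlap, though imBAT replicate 4 lay only just above sham replicate 2. The change was 0.55 ± 0.19 on the log2 scale, or 1.46-fold (edgeR, adjusted p = 0.0475). This call was lost under the most alternatives of the 6. Leaving out any of the sham libraries, or imBAT replicate 1 or 3, ended it (adjusted p = 0.0899 to 0.136). RLE scaling (0.0502), upper-quartile scaling (0.189) and a block on the number that opens each title (0.0564) also ended it. The adjusted p ran from 0.0186 to 0.189 over the alternatives. Without imBAT replicate 3 the log2 fold change was 0.32.

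Elovl1, which lengthens saturated chains for sphingolipids, moved least of the called members. Its level was 41.91, 36.31 and 39.37 CPM in sham and 54.32, 49.39, 48.45 and 47.73 CPM in imBAT. Every imBAT library was above every sham library, and within imBAT the values agreed to 1.14-fold. The change was 0.35 ± 0.09 on the log2 scale, or 1.28-fold (edgeR, adjusted p = 0.0173). With upper-quartile scaling it was 0.11 and not called (adjusted p = 0.305), and the call was also lost without sham replicate 2 or 3 (0.0828 and 0.0588), in a range of 0.00623 to 0.305 over the alternatives. The closest profiles were those of Ctdsp1, Rpp25l and Shc1, at distances of 0.03 to 0.04.

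Elovl7, another elongase of saturated chains, was low in both groups and rose. It stood at 6.23, 2.45 and 5.30 CPM in sham and at 9.60, 11.73, 7.67 and 11 CPM in imBAT. The groups did not overlap, and sham replicate 2 was the lowest of all. The change was 1.10 ± 0.31 on the log2 scale, or 2.15-fold (edgeR, adjusted p = 0.0212). Unlike Elovl6, it was lowest in imBAT replicate 3 among the imBAT libraries and second highest in replicate 4. Nectin4, an adhesion protein of epithelia, was among the 3 closest profiles (distance 0.15), with Ccdc120 and Mgat3. The mammary luminal markers were all higher in imBAT. Their summed level was lowest of all libraries in sham replicate 2 (225.3 CPM, against 417.0 and 820.6 CPM in the other sham libraries and 1653 to 3087 CPM in imBAT). That was not particular to them. The sums of white adipocyte (2777 CPM), brown adipocyte (13.3), keratinocyte and sebaceous (90.1), endothelial (615.9) and red blood cell markers (105.9) were also lowest there. Those of T cell, B cell and macrophage markers were not. The part of any of these in the Elovl7 values was not tested.

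Elovl4 differed between imBAT libraries and not beyond their spread between groups. It stood at 7.12, 4.86 and 4.83 CPM in sham and at 4.46, 36.01, 5.36 and 14.89 CPM in imBAT replicates 1 to 4. Replicates 2 and 4 were above every sham library, replicate 1 was below all of them and replicate 3 lay among them. The log2 fold change was 1.44 ± 0.69 with a 95% interval from -0.13 to 3.01 (edgeR, adjusted p = 0.121), and 0.56 without imBAT replicate 2. Its closest profiles had the same order of imBAT libraries, which follows from how they were chosen and is no separate result. Zbtb10, a zinc finger gene, stood at 124.1 to 144.4 CPM in sham and at 122.1, 574.5, 122.4 and 241.4 CPM in imBAT replicates 1 to 4 (distance 0.33). Fzd9, a Wnt receptor, was at 3.63 CPM in replicate 2 and at 0.38 to 1.08 CPM in the 6 other libraries (0.37), and Ankrd60 was the third (0.38). Fzd9 reached the mean of 1 CPM only through replicate 2. Neither Zbtb10 nor Fzd9 was called between the groups (adjusted p = 0.168 and 0.0739). Keratinocyte and sebaceous genes, markers of skin where Elovl4 is known to act, gave no single order of the imBAT libraries: their sum was highest in replicate 2 (199.8 CPM, against 147.0 to 174.0 CPM), with Krt5 and Krt14 at 66.58 and 67.89 CPM, whereas their mean log2 CPM was lowest there (2.30, with the next at 2.36). Their part in the Elovl4 values was not tested.

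Elovl3 was low and varied widely in both groups. It had 83, 14 and 5 counts in sham replicates 1 to 3 and 34, 1, 48 and 6 counts in imBAT replicates 1 to 4, or 0.02 to 1.84 CPM. Sham replicate 1 was the highest and imBAT replicate 2 the lowest, and the groups overlapped. The log2 fold change was -0.60 ± 1.16 with a 95% interval from -3.25 to 2.06 (edgeR, adjusted p = 0.701), and 1.35 without sham replicate 1. Of the other 7 brown adipocyte markers, 4 were higher (Cidea, Dio2, Prdm16 and Cox8b), Ppargc1a and Cpt1b did not pass and Ucp1, the uncoupling protein that defines brown fat, was too low to test at 0.04 to 2.04 CPM. The summed level of all 8 was 13.3 to 32.5 CPM in sham and 34.5 to 116.9 CPM in imBAT. Of the 10 sebaceous and keratinocyte genes, 4 were higher (Krt79, Krt5, Krt14 and Mc5r) and 2 lower (Soat1 and Dsg1a), while Awat1, a wax synthase that marks sebaceous glands, had no count in any library. Beside these 2 marker lists, 24.3% of all genes tested were higher and 19.3% lower.

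Elovl2, which lengthens polyunsaturated chains and is best known from liver, was hardly detected. It had 4, 9 and 4 counts in sham and 19, 4, 0 and 0 counts in imBAT. A count of 0 allows up to 3 counts, or 0.0738 CPM in imBAT replicate 3 and 0.0719 CPM in replicate 4, for counting error only. The groups overlapped, and no test was made.

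Among the members that serve every elongase, the dehydratase Hacd2 rose most clearly. Its level was 21.77, 14.22 and 18.29 CPM in sham and 75.69, 53.36, 113.01 and 79.03 CPM in imBAT, so that the lowest imBAT library was well above the highest sham library. The change was 2.15 ± 0.26 on the log2 scale, or 4.44-fold (edgeR, adjusted p = 0.00112), and it alone of the members was called in each of 16 alternatives. Here imBAT replicate 4 was 4.37 times the sham mean, against 1.36 times for Elovl6. Hacd3, the other dehydratase among the members, stood at 55.01, 49.69 and 49.07 CPM in sham and at 63.39, 65.12, 55.17 and 56.98 CPM in imBAT. The groups only just failed to overlap, and the log2 fold change was 0.23 ± 0.10 with an interval from 0.01 to 0.46 (edgeR, adjusted p = 0.0863; 0.0235 by voom, and 0.0235 to 0.972 over the alternatives), which upper-quartile scaling turned to -0.0048.

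Tecr, the last enzyme of the cycle, rose 1.68-fold. It stood at 100.19, 90.9 and 98.18 CPM in sham and at 156.68, 135.14, 233.06 and 124.24 CPM in imBAT, with no overlap and with replicate 3 the highest. The log2 fold change was 0.75 ± 0.21 (edgeR, adjusted p = 0.0193). It was not called with upper-quartile scaling (0.0538) or without sham replicate 2 or 3 (0.0693 and 0.0569), in a range of 0.00524 to 0.0693 over the alternatives. Without imBAT replicate 3 the log2 fold change was 0.47 and still called (adjusted p = 0.00817).

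The other enzymes of the cycle also rose where they could be tested. Of 4 listed, 3 were tested and all 3 were higher, where 24.3% of all genes tested were higher. Hsd17b12, the ketoacyl-CoA reductase, stood at 52.52, 38.54 and 49.71 CPM in sham and at 145.18, 99.84, 240.36 and 111.68 CPM in imBAT (log2 fold change 1.67 ± 0.30, edgeR adjusted p = 0.00385). The dehydratases Hacd1 and Hacd4 rose 4.75-fold from 1.99 ± 0.73 CPM (SD, n = 3) and 3.70-fold from 5.89 ± 1.58 CPM (edgeR, adjusted p = 0.00201 and 0.00181). Hsd17b12, Hacd1 and Hacd4 were each called in all 16 alternatives, as Hacd2 was. Tecrl, a relative of Tecr, had 2 counts in sham replicate 1, 6 counts in imBAT replicate 4 and none elsewhere. Thus each of the 4 reactions had at least 1 gene that rose, by unequal amounts. For the enoyl-CoA reduction that gene was Tecr alone, whose call was lost in 3 of 16 alternatives.

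**Figure D3:**
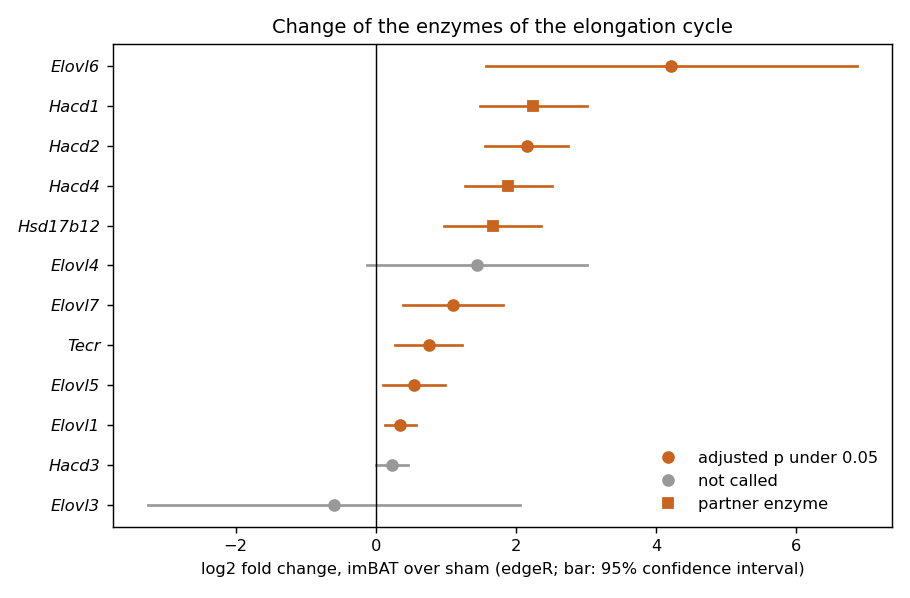
Log2 fold change of imBAT over sham (x axis) for the 9 tested members (circles) and 3 partner enzymes (squares), with the 95% confidence interval from edgeR; orange marks an adjusted p under 0.05. Elovl6 at 4.21 has the widest interval of the called genes, and Elovl1 at 0.35 one of the narrowest.

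The make-up of the elongase RNA was compared as the share of each gene in the summed level per length of Elovl1 to Elovl7. In sham, Elovl5 made up 49.4% ± 3.76 and Elovl1 36.0% ± 1.59 (SD, n = 3), and Elovl6 made up 6.31%, 5.68% and 6.34% in replicates 1 to 3. In imBAT replicates 1 to 4 Elovl6 made up 17.2%, 35.8%, 69.0% and 6.64%. It was thus the leading elongase transcript in replicates 2 and 3, while Elovl5 led in replicates 1 and 4 and in every sham library. The share of Elovl6 was higher by 26.1 percentage points in imBAT, from 6.11% ± 0.37 to 32.2% ± 27.4 (n = 4), with no overlap between groups. An exact two-sided permutation test gave p = 0.0571, the smallest that 35 groupings allow, and an adjusted p = 0.267 over the 7 genes. The shares of Elovl5 and Elovl1 were lower by means of 15.4 and 12.4 points, and each overlapped between groups (exact permutation p = 0.114 for both, adjusted p = 0.267). The summed level without Elovl6 was 36.0 to 40.1 RPKM in sham and 46.6 to 60.5 RPKM in imBAT, and with it 38.4 to 42.8 and 49.9 to 195.3 RPKM.

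**Figure D4:**
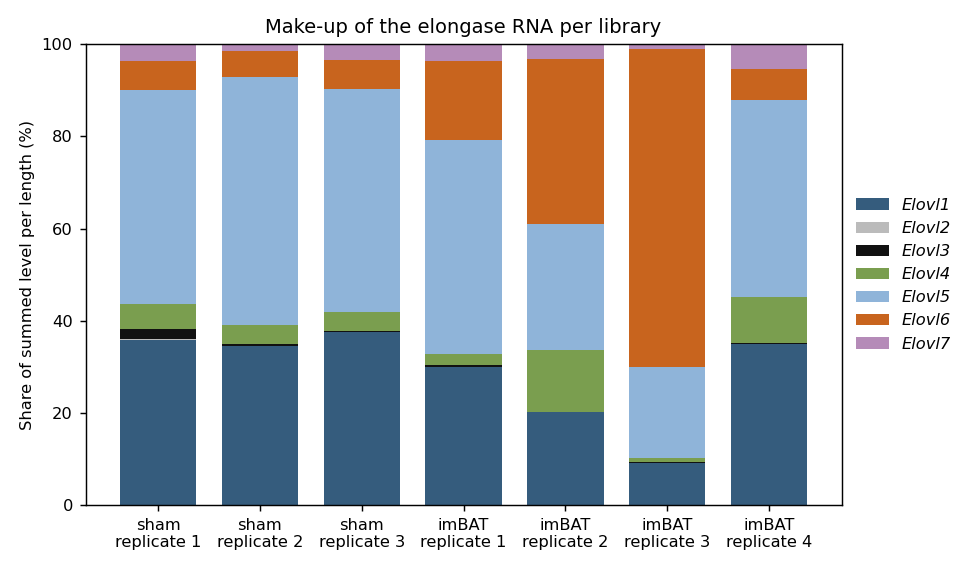
Share of each of the 7 elongase genes in their summed level per length (y axis, percent) in each library (x axis); each bar adds to 100%. Elovl6 takes 69.0% in imBAT replicate 3 and 6.64% in imBAT replicate 4, close to the 5.68% to 6.34% of the sham libraries.

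The members were also set beside the fat cell markers of the same library, as log2 CPM minus the mean log2 CPM of 15 white adipocyte markers. That mean was 6.74, 6.06 and 7.14 in sham and 10.10, 9.51, 10.65 and 9.86 in imBAT, a difference of 3.38. Since the markers moved this far, almost every gene was lower in this ratio: the median over all 26393 genes tested was -3.40, and 95.8% were lower in imBAT without overlap and 0.121% higher. Relative to the marker mean, Tecr was lower in imBAT by 2.67 (from -0.06 ± 0.49 to -2.73 ± 0.21, SD, n = 3 and 4). Hacd2 was lower by 1.26 (from -2.49 ± 0.40 to -3.75 ± 0.14), Elovl5 by 2.87, Elovl1 by 3.03, Hacd3 by 3.15 and Elovl7 by 2.20. For each of these 6 genes the groups did not overlap, and the exact two-sided permutation test gave p = 0.0571, the smallest possible, and adjusted p = 0.0714 over the 10 members, which beside the 95.8% is no result about these genes. Elovl2 and Elovl3 were lower by 4.10 and 3.90 at the same p, from very few counts. Elovl4 was lower by 2.43 with overlap (exact p = 0.114). Only Elovl6 had imBAT libraries on both sides of sham, at -3.89, -1.82, -0.89 and -5.44 in replicates 1 to 4 against -3.17 to -2.23 in sham (difference -0.34, exact permutation p = 0.857). Its lowest ratio was in imBAT replicate 4, where the marker mean lay within the range of the other imBAT libraries.

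**Figure D5:**
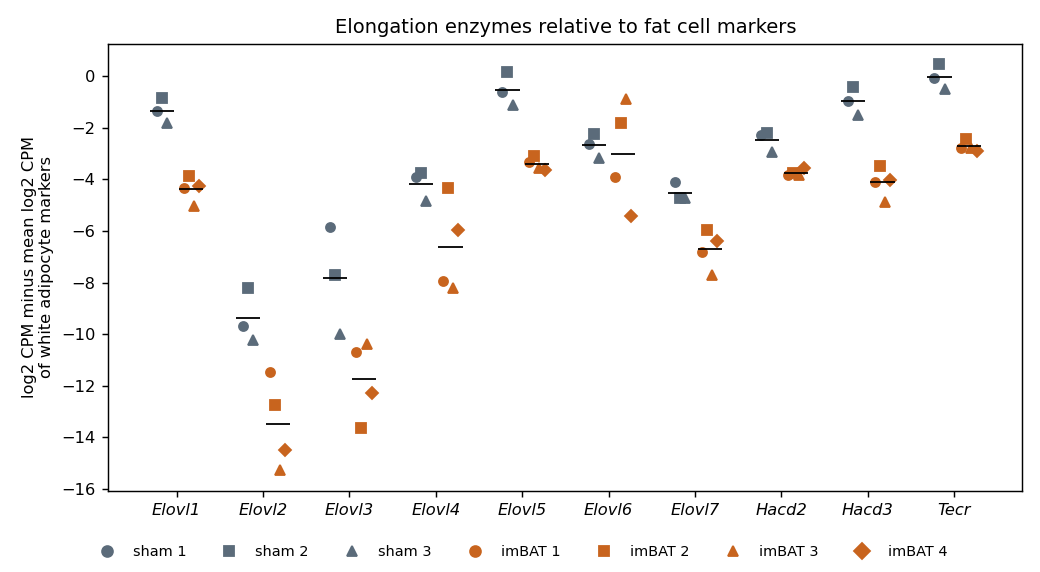
Log2 CPM of each member minus the mean log2 CPM of the 15 white adipocyte markers (y axis) for each gene (x axis); each point is a library and each line a group mean. The imBAT points lie under the sham points for 8 members, overlap in part for Elovl4 and lie on both sides of sham for Elovl6.

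Genes that feed and use the elongation cycle were counted from lists. All 11 genes of malonyl-CoA supply and fatty acid synthesis were higher, with a median log2 fold change of 2.88 beside -0.01 over all genes tested. Thrsp, a lipogenic nuclear protein, rose by 5.15 (edgeR, adjusted p = 0.00162), while Mlycd, which breaks malonyl-CoA down, rose by 0.74 (0.00168) and Mcat of mitochondrial fatty acid synthesis by 0.66 (0.00333). Of 10 desaturase genes 8 were higher, Degs2 was lower and Degs1 did not pass (median 1.69). Beside both lists, 24.3% of all genes tested were higher and 19.3% lower. Among the desaturases Scd1, which desaturates the stearate that Elovl6 makes, rose by 6.15, Scd3 by 4.86 and Fads3 by 3.11. Scd1 and Scd3 are close copies and may share reads.

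Genes that activate or consume long chains were counted in 3 further lists. Of 12 tested acyl-CoA synthetases 4 were higher and 8 did not pass (median 0.46; 24.3% of all genes tested were higher), with Acsl1 up 6.27-fold, Slc27a4 2.02-fold and Acsl3 1.87-fold. Of 9 tested genes of ceramide synthesis 5 were higher and 4 did not pass (median 0.41). Cers2, the ceramide synthase that uses the very long chains of Elovl1, rose 1.61-fold, from 68.7 to 76.1 CPM in sham to 98.9 to 131.6 CPM in imBAT (edgeR, adjusted p = 0.00341). Kdsr and Sptlc3, of sphingoid base synthesis, rose 1.85-fold and 5.07-fold. Of 10 peroxisomal genes that shorten very long chains 6 were higher and 4 did not pass (median 0.86), among them the transporters Abcd2 (9.05-fold) and Abcd3 (2.17-fold). No gene of these 3 lists was lower.

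Of 13 lipogenic regulators 9 were higher and none lower (median 1.24), where 24.3% of all genes tested were higher. Srebf1, which encodes the activator SREBP of fatty acid synthesis genes, stood at 172.09, 151.23 and 183.89 CPM in sham and at 538.62, 469.01, 708.39 and 512.85 CPM in imBAT (log2 fold change 1.72 ± 0.16, edgeR adjusted p = 0.000816). Its imBAT libraries differed 1.51-fold, where those of Elovl6 differed 40.7-fold. Srebf1 was named for its small p, and such a choice favours genes with little spread. Within the same list, imBAT libraries differed 1.38-fold in Rxra, 2.51-fold in Mlxipl and 3.75-fold in Insig1. Mlxipl and Insig1 were highest in replicate 3 and lowest in replicate 4, as Elovl6 was. Rxra and Pparg rose 2.36-fold and 6.90-fold. Srebf2, Mlx, Nr1h2 and Ppard did not pass. White adipocyte markers were higher beside all of these lists, with a median log2 fold change of 3.13.

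The remaining profiles were described by the same distance. Those closest to Hacd2 were Tmem53 (0.07), the receptor Gprc5b (0.11) and Gnb5 (0.11), each higher in imBAT by 2.08 to 2.26 on the log2 scale. Tecr was closest to Ankrd40, Mr1 and Nudt13 (0.05 to 0.06), Elovl5 to Tmx2, Cks1b and Letm1 (0.05 to 0.08), and Hacd3 to Mtss1, Med19 and Slc66a2 (0.04). Elovl3 had no close profile: the nearest, Ighv1-59, Aspg and Ebi3, lay at 1.14 to 1.25.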

How the data were processed

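RNA of 7 libraries was measured by sequencing. The authors deposited 1 table of raw counts per gene. Per the labels' protocols, STAR 2.7.9a placed the reads on an Ensembl assembly; other tools named, without a role, per the submitters' processing notes are edgeR, limma, Subread, Salmon 1.5.2 and featureCounts 2.0.3. Settings for strand and multi-mapping remain not given in the sources used here, so reads of overlapping or near-identical genes may be shared; Elovl1 shares 53 exon bases with Cdc20 on the other strand, Elovl6 34 with Gm35986, Hacd2 32 with Gm21691 and Elovl3 10 with Pitx3. Of 55774 rows, 287 repeated an identifier with identical counts and were dropped. Groups came from the treatment label, and replicate numbers follow accession order. No pair of replicates was alike within sampling noise (chi-square 20.4 to 216.1 per degree of freedom).

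The test was edgeR 4.0.16 in R 4.3.3 (quasi-likelihood, robust, TMM, filter with minimum count 10, model of group alone), with Benjamini-Hochberg adjustment over 26393 genes and a threshold of 0.05. An SE is the log2 fold change over the square root of F. Exon lengths and positions are from GENCODE M21 (GRCm38). Steps were tested on simulated data. The members, lists and tests were chosen with earlier results of these data known. Named genes are the members, up to 3 per pathway list by p, up to 2 per marker list by mean CPM (not all genes of these lists are reported here), and the 3 closest profiles per member (log2 CPM, prior count 2). Genes named after their values were seen are Tecrl, Acly, Acaca, Fasn, Insig1, Mlxipl, Gpd1, Degs1, Degs2, the members of lists that did not pass and the markers beside Elovl3. Alternatives were RLE and upper-quartile scaling, other filters, DESeq2 1.42.0, limma 3.58.1 voom, a block, thinned counts and leaving out each library.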

Additional observations from a re-analysis of the deposited data

How the results depend on the processing

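Leaving out each library in turn gave 7519 to 11403 called genes (11491 with all), of which 3024 to 5097 were lower in imBAT (5084 with all, 3024 without sham replicate 2 and 3074 without sham replicate 3), and 2 to 6 called members, all higher. Upper-quartile scaling gave 8180 lower genes and 3 called members, all higher (Elovl6, Elovl7 and Hacd2), and put Hacd3 at a log2 fold change of -0.0048 and the named genes Ighv1-59, Aspg and Med19 at -0.14, -0.15 and -0.036. Elovl3 was at 0.21 with voom, and leaving out libraries gave -1.52 to 1.35 for Elovl3, -0.70 to 0.87 for Ighv1-59 and -0.73 to 1.22 for Aspg. Leaving out libraries also put the group difference in share between -0.28 and 3.87 percentage points for Elovl4 and between -0.27 and 1.24 for Elovl7, and that in the log2 ratio of Elovl6 to the fat cell markers between -1.05 and 0.47. The exact tests of shares and ratios cannot pass 0.05 with 3 libraries against 4. The number that opens each title was tried as a replicate block. No sham library shares the number 22 of imBAT replicate 2, so that library adds nothing to the group difference there. Values from this fit thus differ from the main ones also by the loss of a library and by fewer residual degrees of freedom. The block gave 3 called members (Elovl1, Hacd2 and Tecr), put Elovl6 at 2.70 (edgeR, adjusted p = 0.0968) and Elovl3 at 0.22. It also gave adjusted p = 0.0564 for Elovl5 and 0.0694 for Elovl7 (edgeR). After centring each group on its mean, same-numbered libraries correlated at -0.014, 0.102 and 0.114, and pairs with unlike numbers at -0.143 to 0.04. Not every library correlated best with its own number. The labels do not say what the number means. Whether same-numbered libraries belong together cannot be told from these values. DESeq2 and voom gave 12396 and 13732 called genes and 6 and 7 called members. The 3 sham libraries limit the precision, and counts of Elovl2 and Elovl3 are too low for a comparison. For every shift named here the cause was not tested.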
